A study of Homo sapiens with 15 samples.

Results

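PVT1, CCDC26, MALAT1, NEAT1 and TUG1 are long noncoding RNAs (lncRNAs), transcripts that act without being translated and that are found largely or partly in the nucleus. They were followed here in MOLM-14, an established human acute myeloid leukemia (AML) cell line with an MLL rearrangement. The 5 genes were chosen by name, as genes known as nuclear lncRNAs or as noncoding neighbours of MYC, and each stood once among the 57964 entries of the RNA table. TPM, the unit of the table, is the share of a library's transcripts that Salmon assigns to a gene. Testing required 1 TPM or more in 2 or more libraries, which all 5 and 14367 entries in all reached. The 8 RNA libraries came from 4 groups of 2, all taken at 6 h: cells electroporated with 100 nM in vitro transcribed (IVT) GFP RNA, cells electroporated with 100 nM IVT NR4A1 RNA, cells given vehicle, and cells given 10 uM dihydroergotamine (DHE). NR4A1 is an orphan nuclear receptor with tumor suppressor activity in AML, and the study asked how the response to DHE relates to that of NR4A1. All groups are the same cell line with its endogenous NR4A genes, so the NR4A1 RNA was added to the cells' own. Nothing in the sources used here says whether the 2 libraries of a group came from separate cultures, so p-values measure only the spread between these libraries.

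MYC sits in a wide region of chromosome 8 with few protein-coding genes, and the region holds many noncoding genes and distant enhancers that act on MYC in blood cells. PVT1 begins just downstream of MYC and is often gained together with it in cancer, and its promoter is known to compete with that of MYC for enhancers. CCDC26 is a lncRNA gene further downstream that has been linked to myeloid leukemia. MALAT1 is an abundant RNA of nuclear speckles, bodies that store splicing factors. NEAT1 is the RNA around which paraspeckles, bodies that retain RNA and RNA-binding proteins, are built. TUG1 was first described in retina and taurine biology, is found in nucleus and cytoplasm, and has been linked to Polycomb repression.

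On GRCh37 with the Gencode v44lift37 annotation, PVT1 spans chr8:128806772-129199347 on the plus strand, with 190 annotated transcripts of 408 to 2450 bases, and begins 51.6 kb past the end of MYC (chr8:128747680-128755197, plus strand). CCDC26 spans chr8:129646445-130696016 on the minus strand, with 143 transcripts, and its nearest end lies 891 kb past MYC. That is the end of the gene on its strand, and its annotated start lies 1948 kb past the MYC start.

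MALAT1 (chr11:65265111-65275544) and NEAT1 (chr11:65190245-65213011) are neighbours on the plus strand of chromosome 11 in the same annotation. MALAT1 has 66 annotated transcripts of up to 10434 bases, and NEAT1 has 9 of 512 to 22743 bases. TUG1 (chr22:31365231-31375381, plus strand) has 20 transcripts of up to 7474 bases and carries the protein-coding label in this annotation. The table holds a single value per gene, so the short and long forms of NEAT1, or the many forms of PVT1, cannot be told apart. TALAM1 is annotated on the minus strand within MALAT1; the kit marks the strand, and how strand was set in quantification is not given in the sources used here.

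RefSeq promoter windows run from 250 bases before a start to 50 after it (GRCh38.p14). They are given for 2 of the 5 genes, MALAT1 with 2 starts and TUG1 with 1. Windows and motifs of the other genes are not described here. The windows of MALAT1 and TUG1 allow a look at the letters that NR4A receptors, MYC and CREB are known to bind. In the MALAT1 lines the capitals mark the 50 bases from the start on, and in the TUG1 line they mark the only motif match.
MALAT1, upstream start, chr11:65497488-65497787, plus strand: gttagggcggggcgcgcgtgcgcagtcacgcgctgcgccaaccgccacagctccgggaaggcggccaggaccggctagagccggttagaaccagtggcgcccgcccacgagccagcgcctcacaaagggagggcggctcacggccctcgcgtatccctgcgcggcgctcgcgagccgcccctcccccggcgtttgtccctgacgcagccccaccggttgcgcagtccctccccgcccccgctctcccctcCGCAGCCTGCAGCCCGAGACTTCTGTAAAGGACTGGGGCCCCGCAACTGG
MALAT1, downstream start, chr11:65498795-65499094, plus strand: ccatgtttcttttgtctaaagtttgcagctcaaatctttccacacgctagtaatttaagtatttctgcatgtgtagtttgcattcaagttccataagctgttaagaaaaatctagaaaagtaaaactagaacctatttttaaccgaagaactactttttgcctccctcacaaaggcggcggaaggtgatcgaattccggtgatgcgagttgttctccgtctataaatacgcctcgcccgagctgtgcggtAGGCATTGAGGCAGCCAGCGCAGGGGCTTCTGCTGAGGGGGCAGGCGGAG
TUG1, chr22:30969015-30969314, plus strand: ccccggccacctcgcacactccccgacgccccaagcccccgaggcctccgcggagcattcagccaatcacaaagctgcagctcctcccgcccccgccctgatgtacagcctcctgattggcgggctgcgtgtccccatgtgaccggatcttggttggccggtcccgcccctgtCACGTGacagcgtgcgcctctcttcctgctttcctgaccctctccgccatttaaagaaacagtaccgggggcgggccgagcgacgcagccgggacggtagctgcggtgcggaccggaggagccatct
The letters searched on both strands were AAAGGTCA (NR4A), CACGTG (the E box of MYC and related factors) and TGACGTCA (CREB), and no matches overlapped. The TUG1 window held 1 E box, beginning 77 bases before the start, and neither MALAT1 window held any of the 3 motifs. Over the 35116 windows of RefSeq, 7.26% held the E box, 1.22% the NR4A letters and 1.85% the CREB letters. The upstream MALAT1 window was 73.7% G or C with 37 CpG, the downstream one 46.0% with 14 CpG, and that of TUG1 67.7% with 28 CpG, beside medians of 58.7% and 14 CpG over all windows. A match is a description of letters and shows no binding.

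The libraries were not alike within groups. MIR663A, an entry that lies in ribosomal RNA related sequence, stood at 101455 TPM in GFP replicate 1 and at 24979 TPM in DHE replicate 2, and between 1353 and 6283 TPM in the other 6. The 15 mitochondrially encoded genes had a median log2 gap of 1.44 between GFP replicates 1 and 2 and of 0.91 between DHE replicates 2 and 1, higher in the library named first for 14 of 15 in each pair. For each lncRNA the NR4A1 RNA difference is therefore also given without GFP replicate 1, and the DHE difference without DHE replicate 2. NR4A1 reached 719 and 674 TPM where its RNA was given, beside 2.49 and 2.84 TPM in the GFP libraries and between 1.27 and 1.70 TPM with vehicle or DHE (DHE against vehicle, log2 difference 0.04, adjusted p 0.838). NR4A2 (0.418 to 0.964 TPM) and NR4A3 (0.00492 to 0.258 TPM, highest with DHE) did not pass the filter. Of the 10 MOLM-14 markers, 9 reached 1 TPM in every library, and all 18 markers of lymphoid, erythroid, epithelial and fibroblast cells stayed under 1 TPM in every library, 6 of them at 0 throughout. Sequencing depth cannot be read from TPM and is unknown.

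PVT1 was lower where NR4A1 RNA or DHE was given than in the matching controls, in every library. The GFP libraries held 21.4 and 22.7 TPM of PVT1, the NR4A1 libraries 15.7 and 14.9 TPM, the vehicle libraries 16.8 and 19.2 TPM, and the DHE libraries 8.06 and 15.7 TPM. The groups did not overlap in either comparison, and the DHE libraries lay furthest apart. With 2 libraries in each group such separation is weak evidence, and its share over all tested genes was not counted. The same limit holds for the separations of the other lncRNAs given below. On log2(scaled TPM + 0.5), the scale of every fold change below, PVT1 differed by -0.56 (SE 0.23, 95% interval -1.12 to -0.00384) between NR4A1 RNA and GFP RNA, with a Benjamini-Hochberg adjusted p of 0.173 in limma. With DHE against vehicle the difference was -0.67 (SE 0.23, interval -1.23 to -0.11), with an adjusted p of 0.0683. A call needed an adjusted p under 0.05 and more than 1.5-fold, so PVT1 was not called in either. With NR4A1 RNA its fold (1.48) was also under that limit. The estimate of spread is shared by all 4 groups, so the DHE libraries also enter the p-value with NR4A1 RNA. Without GFP replicate 1 the difference with NR4A1 RNA was -0.51 (adjusted p 0.408). DHE replicate 2 decided the second result: without it the difference was -1.04 with an adjusted p of 0.00498, which is a call, and without DHE replicate 1 it was -0.30 with an adjusted p of 0.112.

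CCDC26 showed the same order of levels. Its level was 7.31 and 8.59 TPM in the GFP libraries, 5.31 and 5.49 TPM in the NR4A1 libraries, 6.86 and 7.67 TPM in the vehicle libraries, and 3.21 and 5.30 TPM in the DHE libraries. Both treated groups lay wholly below their controls. CCDC26 fell with DHE, by 0.76 on the log2 scale (SE 0.16, adjusted p 0.0147), 1.69-fold. With NR4A1 RNA the difference was -0.56 (SE 0.16, 1.48-fold) at an adjusted p of 0.0868 in limma. It passed neither limit, so it is no call, and without GFP replicate 1 it was -0.58. Without DHE replicate 2 the DHE difference was -0.99 (adjusted p 0.00513), without DHE replicate 1 it was -0.52, under 1.5-fold, and without either vehicle library its adjusted p was 0.0506 or 0.0855.

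**Figure D1:**
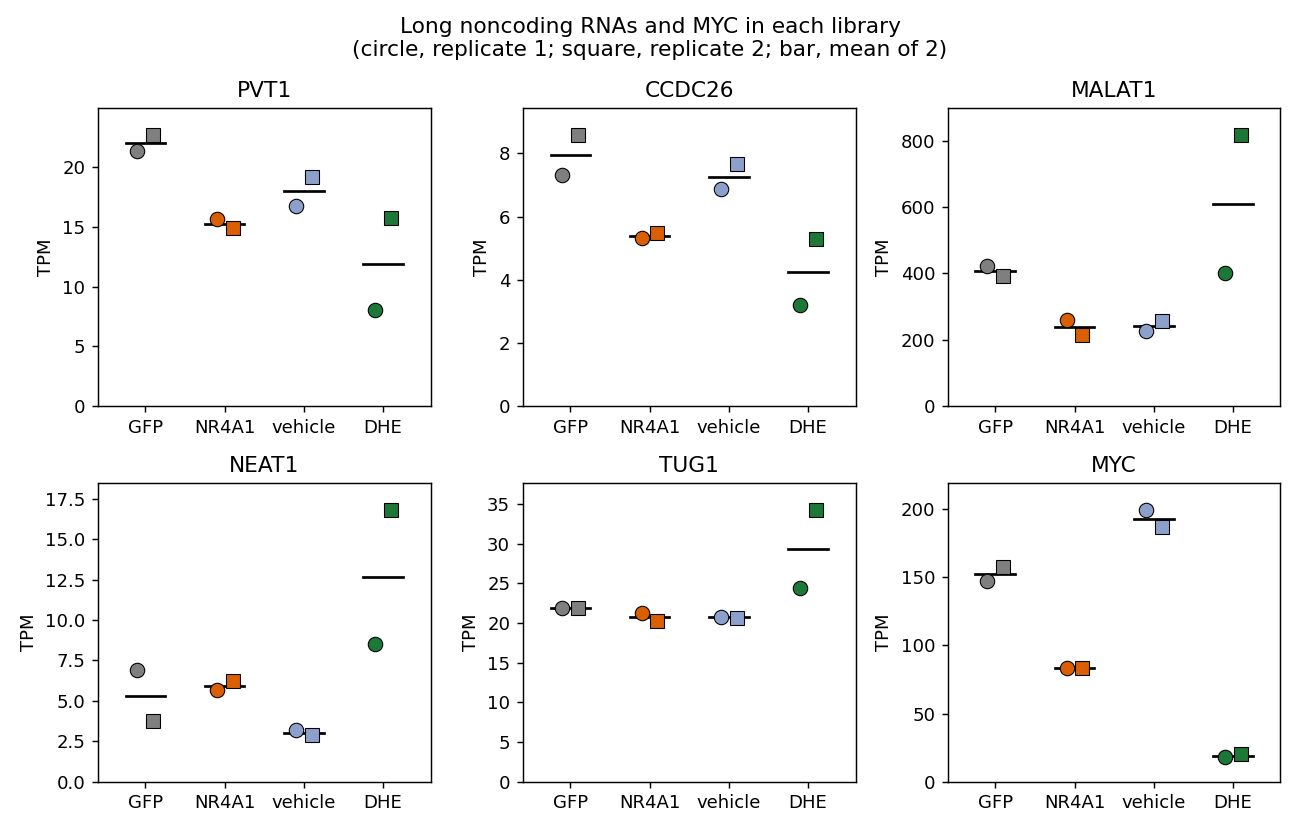
TPM of the 5 lncRNAs and of MYC (y axis, linear from 0) in the 2 libraries of each group, with circles for replicate 1, squares for replicate 2 and bars for the mean of the 2. PVT1 and CCDC26 are lower in both NR4A1 libraries and both DHE libraries than in their controls, MALAT1, NEAT1 and TUG1 are highest in DHE replicate 2, and DHE replicate 2 lies above DHE replicate 1 for every gene shown.

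MYC itself, the transcription factor gene next to PVT1, fell much further with DHE. From 199 and 187 TPM in the vehicle libraries to 18.2 and 20.1 TPM in the DHE libraries, it fell by 3.32 on the log2 scale (SE 0.06, interval -3.47 to -3.17, adjusted p 3.33e-05). With NR4A1 RNA it fell by 0.92, to 83.4 and 83.2 TPM from 147 and 157 TPM in the GFP libraries (SE 0.06, adjusted p 0.0017). The 95% intervals of PVT1 and CCDC26 with DHE do not reach that of MYC, and those with NR4A1 RNA overlap it. For each 1000 TPM of MYC, PVT1 measured 84.2 and 103 TPM in the vehicle libraries and 443 and 780 TPM in the DHE libraries, a mean 6.54-fold higher. With GFP RNA the same ratio was 145 and 144, and with NR4A1 RNA 188 and 179, a mean 1.27-fold higher. MYC differed little between the DHE replicates (log2 gap of replicate 2 over 1, -0.04), whereas PVT1 (0.74) and CCDC26 (0.47) lay above 94.3% and 89.5% of the tested genes in that gap.

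A list of genes in the MYC region, which leaves out PVT1 and CCDC26, held 8 tested genes, MYC itself among them. Of these 8, 0 rose and 2 fell with DHE, MYC and MIR1205. With NR4A1 RNA 0 rose and 1 fell, MYC. By the same rule 10.1% of all tested genes fell and 9.07% rose with DHE. For NR4A1 RNA these shares were 2.26% and 2.64%. The MIR1205 entry is too low and too short to read, as given below, so no readable gene of this list beside MYC was called. CCDC26, which lies in the same region and outside this list, was called lower with DHE, as given above. The median log2 differences of these 8 were 0.10 with DHE and -0.25 with NR4A1 RNA, beside 0.04 and -0.02 over all genes tested. TRIB1, which encodes a pseudokinase scaffold for protein degradation, had a log2 difference of 0.53 with NR4A1 RNA at an adjusted p of 0.0145, under 1.5-fold, and of 0.15 with DHE. FAM49B (CYRIB, a regulator of the actin cytoskeleton) had differences of 0.33 and 0.14, and ASAP1, which encodes a GTPase-activating protein, of -0.15 and 0.41. The lncRNA PCAT1, at 0.548 to 1.10 TPM, had differences of -0.36 and 0.07. None of these 4 was called. The microRNA genes MIR1205, MIR1206 and MIR1207 lie within PVT1, and their entries are too low and too short to read as host levels. MIR1205 was listed at 7.19 and 10.2 TPM in the vehicle libraries, at 0 in both DHE libraries, at 2.23 and 5.35 TPM in the GFP libraries, and at 0 and 1.55 TPM in the NR4A1 libraries. MIR1206 ranged from 0 to 4.54 TPM and MIR1207 from 0 to 6.66 TPM, and neither was called.

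**Figure D2:**
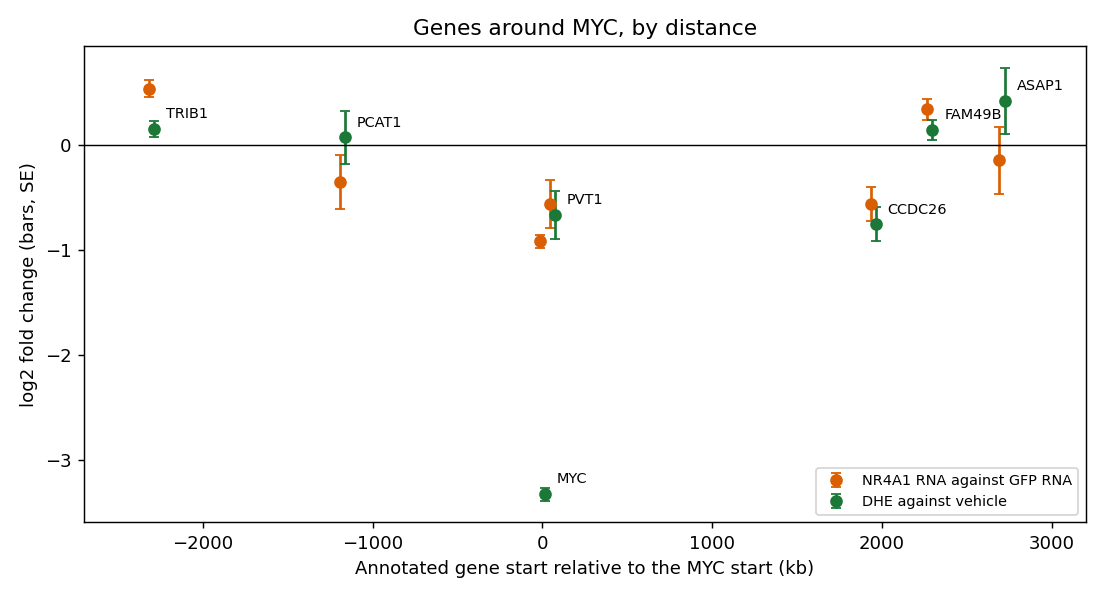
The log2 fold change (y axis, with SE bars) of tested genes around MYC, by the distance of their annotated start from that of MYC in kb (x axis), for NR4A1 RNA against GFP RNA and for DHE against vehicle. MYC, PVT1 and CCDC26 lie below 0 in both comparisons, and MYC with DHE lies far below the others; the 3 microRNA genes are not drawn.

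MALAT1 was higher with DHE and lower with NR4A1 RNA than in the matching controls. The vehicle libraries held 225 and 256 TPM of MALAT1 and the DHE libraries 402 and 818 TPM, while the GFP libraries held 422 and 391 TPM and the NR4A1 libraries 259 and 216 TPM. The groups did not overlap in either comparison, and the 2 control groups did not overlap each other. MALAT1 rose with DHE by 1.23 on the log2 scale (SE 0.27, interval 0.56 to 1.90, adjusted p 0.0172), 2.35-fold. The difference with NR4A1 RNA was -0.83 (SE 0.27, interval -1.50 to -0.16), over 1.5-fold but with an adjusted p of 0.117, which is no call. Without GFP replicate 1 it was -0.68. DHE replicate 2 enters this comparison only through the scaling, the filter and the estimate of spread. Without DHE replicate 2 the difference with NR4A1 RNA was -0.82, which was a call, and leaving out DHE replicate 1 gave the same call. GFP RNA against vehicle gave 0.87 (SE 0.27, adjusted p 0.223); these groups also differ by electroporation, and the RNA and the electroporation cannot be told apart. The DHE effect exceeded the NR4A1 effect by 2.06 (SE 0.39, interval 1.11 to 3.01, adjusted p 0.0207), and 14.1% of all tested genes passed the same rule in that comparison. In level, the NR4A1 libraries (259 and 216 TPM) overlapped the vehicle libraries. Without DHE replicate 2 the DHE difference was 0.82 with an adjusted p of 0.03, still a call, and without either vehicle library the adjusted p was 0.0946 or 0.0619. The difference of effects was not called without GFP replicate 1 (1.91, adjusted p 0.0546), either vehicle library (1.96 and 2.17) or either NR4A1 library (2.17 and 1.95), although its size changed little.

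NEAT1 was also higher with DHE. Its level was 3.19 and 2.88 TPM in the vehicle libraries and 8.49 and 16.8 TPM in the DHE libraries, so that the lower DHE library was above both vehicle libraries. NEAT1 rose by 1.79 (SE 0.37, interval 0.90 to 2.69, adjusted p 0.0129), 3.47-fold, the largest change of the 5 lncRNAs with DHE. Without DHE replicate 2 the difference was 1.41 with an adjusted p of 0.0587, and without either vehicle library the adjusted p was 0.0623 or 0.0683. The GFP libraries held 6.90 and 3.74 TPM of NEAT1 and the NR4A1 libraries 5.64 and 6.20 TPM, and these groups overlapped. The difference with NR4A1 RNA was 0.15 (SE 0.37, interval -0.75 to 1.05), an interval that holds changes of 1.5-fold in either direction. GFP replicate 1 decided its sign: the difference was -0.35 without GFP replicate 2 and 0.64 without GFP replicate 1. The difference of the DHE and NR4A1 effects was 1.64 (SE 0.52) with an adjusted p of 0.0753.

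TUG1 varied least. The GFP libraries held 21.9 and 21.8 TPM, the NR4A1 libraries 21.3 and 20.2 TPM, the vehicle libraries 20.8 and 20.6 TPM, and the DHE libraries 24.4 and 34.2 TPM. The 6 libraries without DHE lay between 20.2 and 21.9 TPM, and both DHE libraries lay above all of them. On scaled TPM, which the tests use, the gap was narrow, with 24.6 in GFP replicate 1 beside 24.9 in DHE replicate 1. The DHE difference was 0.45 (SE 0.11, interval 0.17 to 0.73, adjusted p 0.0266), 1.37-fold, which passed the limit on p and not that on fold, so TUG1 was not called. The difference with NR4A1 RNA was -0.12 (SE 0.11, interval -0.40 to 0.16), which is no call, and -0.03 without GFP replicate 1. The DHE difference was 0.60, past 1.5-fold, without DHE replicate 1 (adjusted p 0.0122) and 0.30 without DHE replicate 2 (adjusted p 0.0810). Without either vehicle library its adjusted p was 0.120 or 0.108.

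**Figure D3:**
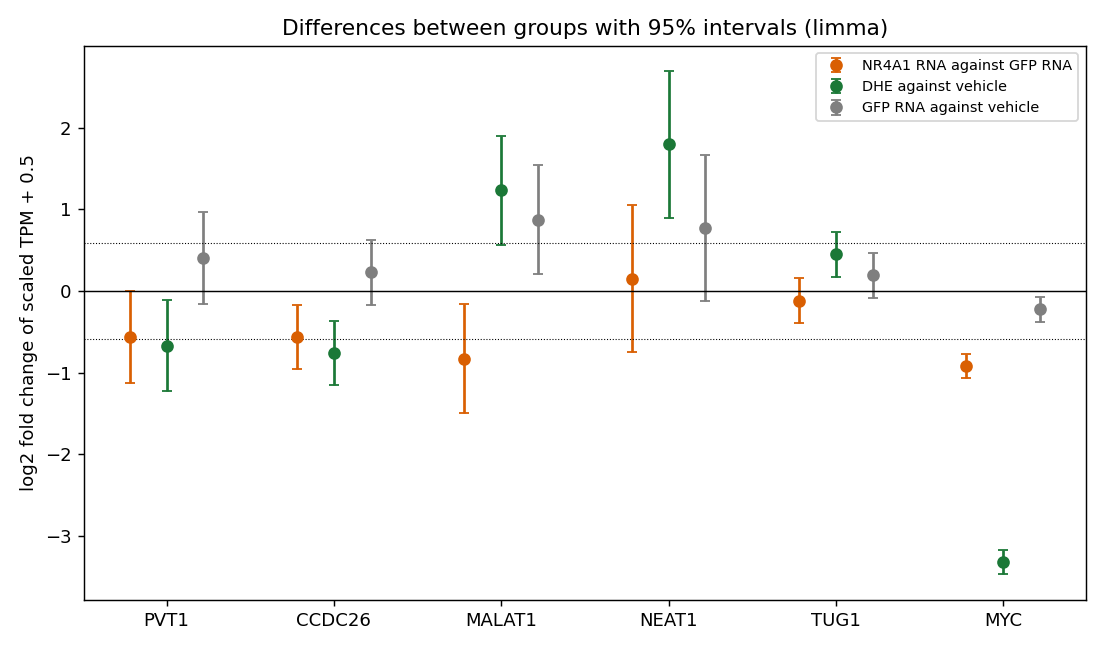
The log2 fold change of scaled TPM + 0.5 (y axis) of the 5 lncRNAs and MYC in 3 comparisons, with 95% intervals from limma; dotted lines mark 1.5-fold. MALAT1 and NEAT1 lie above 0 with DHE (1.23 and 1.79) and PVT1 and CCDC26 below (-0.67 and -0.76), while all 4 noncoding RNAs other than NEAT1 lie below 0 with NR4A1 RNA.

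Over the 5 lncRNAs, limma called 2 higher and 1 lower with DHE, beside 19.2% of all tested genes called in either direction. With NR4A1 RNA it called 0 of 5, beside 4.9% of all genes, and 3 of 5 (PVT1, CCDC26 and MALAT1) had an unadjusted p under 0.05, beside 28.6% of all genes. GFP RNA against vehicle gave 0 of 5, beside 0.0139% of all genes, with 1 of 5 (MALAT1) at an unadjusted p under 0.05, beside 18.7%. For the difference of effects 1 of 5 was called, beside the 14.1% given above. The median log2 difference of the 5 was 0.45 with DHE and -0.56 with NR4A1 RNA, beside 0.04 and -0.02 over all genes. The effect of NR4A1 and the difference of effects share the GFP and NR4A1 libraries, and the effect of DHE and the difference of effects share the vehicle and DHE libraries.

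The gap between the DHE libraries ran one way for all 5 lncRNAs. On the log2 scale DHE replicate 2 exceeded replicate 1 by 0.83 for MALAT1, 0.76 for NEAT1, 0.74 for PVT1, 0.47 for CCDC26 and 0.29 for TUG1. The median gap over all genes tested was 0, and 90% of genes lay between -0.47 and 0.82. The RNAs that were higher with DHE and those that were lower thus shifted together between the 2 DHE libraries. Among the GFP libraries NEAT1 had the widest gap, 0.98 higher in replicate 1, and CCDC26 was 0.04 higher in replicate 2. Between the vehicle libraries the widest gap of the 5 was 0.22, for PVT1, and between the NR4A1 libraries that of MALAT1, -0.22, was the widest. The part of ribosomal RNA related sequence in the DHE gap was not tested.

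**Figure D4:**
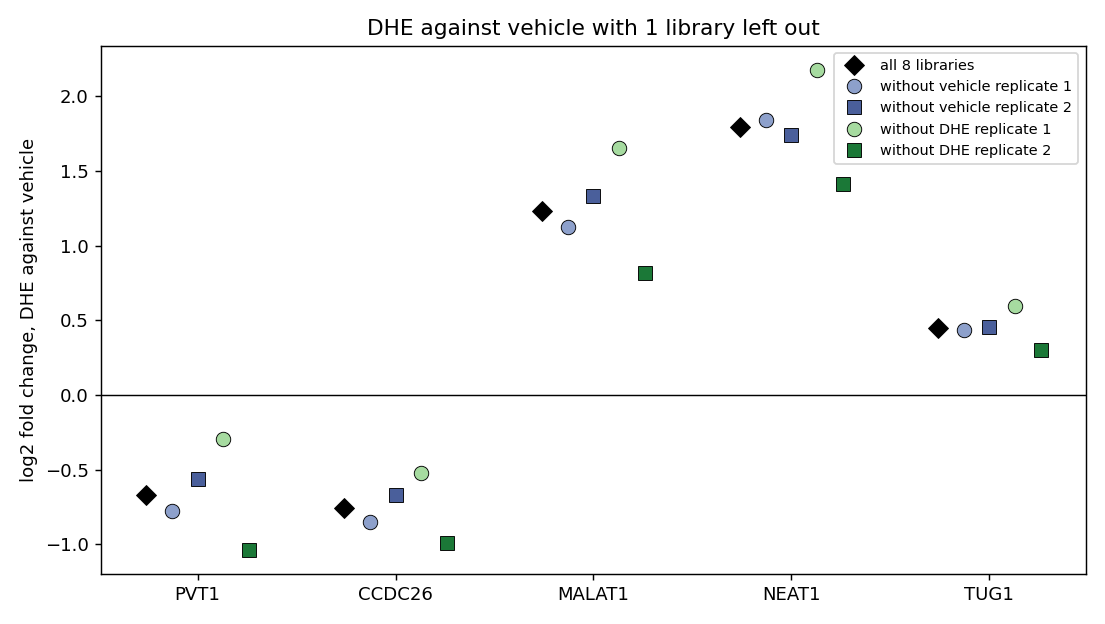
The log2 fold change of DHE against vehicle (y axis) for each lncRNA with all 8 libraries (diamonds) and with 1 vehicle or DHE library left out. Every value keeps its sign, and leaving out DHE replicate 2 (dark green squares) moves all 5 down, so PVT1 and CCDC26 move away from 0 and MALAT1, NEAT1 and TUG1 towards it.

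A ratio of 2 RNAs within a library does not depend on scaling between libraries. These ratios were chosen after the values had been seen and carry no test. For each 1000 TPM of MALAT1, PVT1 measured 74.5 and 75.1 TPM in the vehicle libraries and 20.1 and 19.2 TPM in the DHE libraries, a mean 3.81-fold lower. The DHE replicates lay closer in this ratio than in the level of either RNA, since PVT1 and MALAT1 had like gaps between them. The same ratio was 50.6 and 58.1 with GFP RNA and 60.4 and 69.0 with NR4A1 RNA. NEAT1 for each 1000 TPM of MALAT1 was 14.1 and 11.3 with vehicle and 21.1 and 20.6 with DHE, and 16.3 and 9.56 with GFP RNA against 21.8 and 28.8 with NR4A1 RNA. CCDC26 for each 1000 TPM of PVT1 stayed between 337 and 408 over all 8 libraries, with its DHE libraries (399 and 337) below both vehicle libraries (408 and 399.6) and across the range of the GFP and NR4A1 groups. TUG1 for each 1000 TPM of MALAT1 was 92.2 and 80.7 with vehicle and 60.7 and 41.9 with DHE. A ratio shows unequal change and not which RNA changed.

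**Figure D5:**
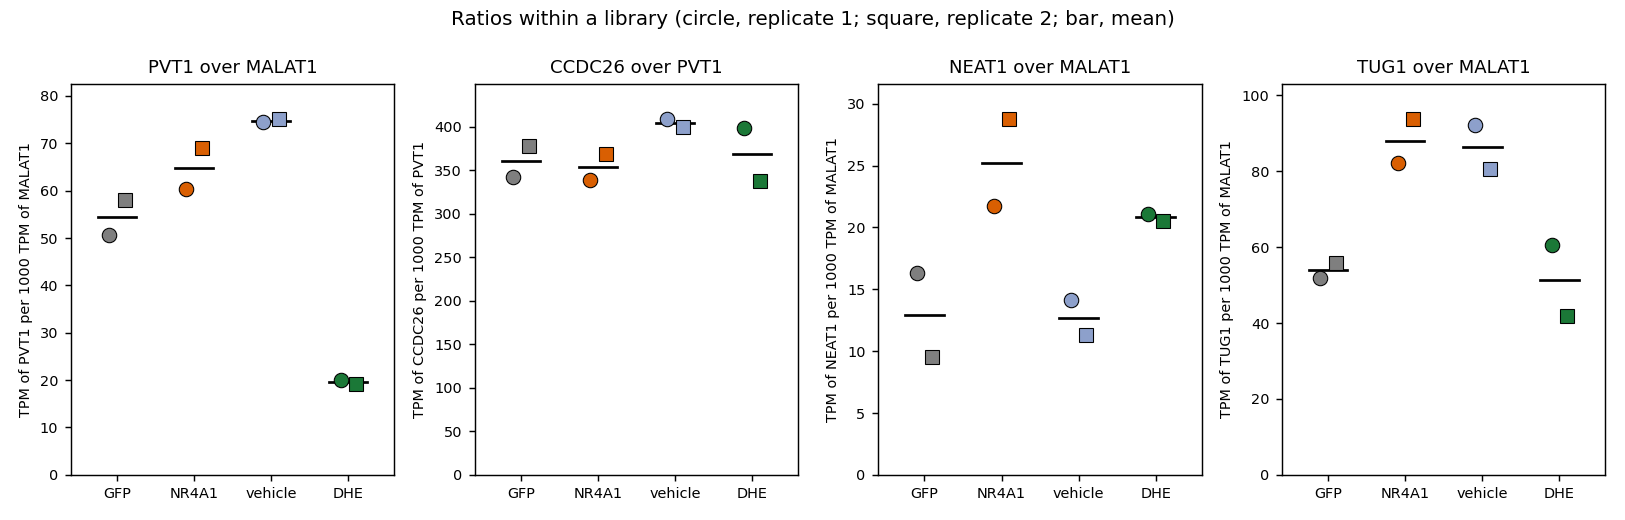
TPM of 1 lncRNA for each 1000 TPM of another in the same library (y axes, linear from 0), with circles for replicate 1, squares for replicate 2 and bars for the mean. PVT1 over MALAT1 is lowest in the DHE libraries (20.1 and 19.2), and CCDC26 over PVT1 stays between 337 and 408 in all 8.

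Likeness of pattern was measured as the root mean square difference between log2 values centred on each gene's mean over the 8 libraries, among 8950 tested genes averaging 5 scaled TPM or more. The gene most like PVT1 was CCDC26 (0.11, where PVT1's own spread about its mean was 0.43), followed by DDI2 (0.13), which encodes a protease. Those most like CCDC26 were DDI2 (0.09), CTD-2547E10.2 (0.10) and SYNCRIP (0.11), an RNA-binding protein gene. MALAT1 was most like MKI67 (0.17), the gene of the Ki-67 proliferation marker, PRKACA (0.18), a catalytic subunit of protein kinase A, and PTPN12 (0.19), a tyrosine phosphatase gene. NEAT1 was most like B4GALT1, KIAA0430 and SEC14L1 (0.27 to 0.28, beside a spread of 0.71). TUG1 was most like the lncRNA OLMALINC, GINM1 and ITGB3BP (0.04 to 0.05, beside a spread of 0.19). Since the measure takes in every library, it also reads the gaps between replicates.

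Of 16 tested genes for the processing and stability of MALAT1, 0 rose and 5 fell with DHE, beside 9.07% of all tested genes called higher and 10.1% called lower. With NR4A1 RNA 0 were called and 5 of 16 had an unadjusted p under 0.05, beside 28.6% of all genes. RNase P, the enzyme that cuts the end of the MALAT1 precursor, lost transcripts of several of its protein subunits: RPP40 fell by 1.91 (adjusted p 0.000314, limma), POP1 by 1.28, RPP25 by 0.82 and RPP38 by 0.82. ELAC2, the RNase Z that trims the small RNA released from MALAT1, fell by 0.81. RPP40 averaged 28.2 ± 1.09 TPM (SD, n = 2) in the vehicle libraries and 7.37 ± 2.01 TPM (SD, n = 2) in the DHE libraries. The median over the list was -0.38 with DHE, beside 0.04 over all genes. These subunits also serve transfer and ribosomal RNA processing.

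Of 33 tested paraspeckle protein genes, 0 rose and 1 fell with DHE, HNRNPF by 0.70, and 0 were called with NR4A1 RNA (9 of 33 at an unadjusted p under 0.05). Their median with DHE was -0.08, while NEAT1 rose. Of 31 tested nuclear speckle protein genes, 0 rose and 3 fell with DHE: the splicing factor genes SRSF7 by 1.20, U2AF2 by 0.67 and SRSF2 by 0.63. The 3 of 31 are near the 10.1% of all genes called lower. With NR4A1 RNA 0 of 31 were called, with 8 at an unadjusted p under 0.05, beside 28.6% of all genes. Of 19 tested Polycomb genes none rose. JARID2 fell in both treatments, by 0.73 with DHE and by 0.61 with NR4A1 RNA, and CBX6 fell with NR4A1 RNA by 0.83. That is 1 of 19 lower with DHE, beside 10.1% of all genes, and 2 of 19 with NR4A1 RNA, beside 2.26%. An unadjusted p under 0.05 with NR4A1 RNA held for 6 of 19, beside 28.6% of all genes.

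Genes beside the chromosome 11 and 22 lncRNAs were mostly not called, as were most of all tested genes. With DHE 9.07% of all tested genes were called higher and 10.1% lower. Of 14 tested neighbours of MALAT1 and NEAT1, 0 rose and 1 fell with DHE, SSSCA1 by 1.19 (adjusted p 0.000457), and their median was 0.10. Of 7 tested neighbours of TUG1, 2 rose with DHE, SMTN by 1.12 (adjusted p 0.000443), which encodes a cytoskeletal protein of smooth muscle, and PIK3IP1 by 0.77 (adjusted p 0.0298), an inhibitor of PI3 kinase. With NR4A1 RNA 0 of either list were called, beside 4.9% of all genes. An unadjusted p under 0.05 held for 2 of 14 and 5 of 7, beside 28.6% of all genes.

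Among 20 other tested lncRNAs, 2 rose and 2 fell with DHE, and 1 rose and 1 fell with NR4A1 RNA, with medians of 0.07 and -0.00403. Over all genes 19.2% were called with DHE and 4.9% with NR4A1 RNA. MIR17HG, the host of the miR-17-92 cluster and a MYC target, fell by 1.85 with DHE (adjusted p 0.000302) and by 0.65 with NR4A1 RNA (adjusted p 0.0317). DLEU1 fell by 1.03 with DHE, and MIR22HG rose by 0.98 and MIR99AHG by 0.63. CYTOR rose with NR4A1 RNA by 0.88 (adjusted p 0.0195), from 9.43 and 11.1 TPM to 22.5 and 17.5 TPM. The median gap between DHE replicates 2 and 1 over these 20 was 0.05, beside 0.29 to 0.83 for the 5 lncRNAs described first.

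The length of a gene's longest transcript in Gencode v44lift37 moved with the DHE difference among tested genes longer than 1000 bases. Genes of 1000 bases or less were left out. Lengths were found for 11586 of 14367 tested genes (80.6%). The median log2 difference with DHE was -0.11 for the 1409 genes of 1000 to 2000 bases and 0.26 for the 490 genes over 10000 bases, and without DHE replicate 2 these medians were -0.08 and 0.18. MALAT1, NEAT1 and CCDC26 are in the longest class. The DHE differences of MALAT1 (1.23) and NEAT1 (1.79) lie above its median, and that of CCDC26 (-0.76) lies below it. The part of length in their results was not tested.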

How the data were processed

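RNA was depleted of ribosomal RNA and sequenced as paired-end, strand-marked libraries. The authors trimmed reads with Trim Galore, quantified them with Salmon 0.11.0 against Gencode transcripts and deposited TPM, a share of each library that keeps no depth; fold changes and p-values of the authors' DESeq2 comparisons stand beside them and were not used. The 7 ChIP and input samples were not analysed here.

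Libraries were scaled by the median of ratios over 11460 genes. The 14367 genes reaching 1 TPM in 2 or more libraries entered a limma 3.58.1 fit (R 4.3.3) of log2(scaled TPM + 0.5) on 4 group means with an intensity trend, a procedure that was tested on simulated data. A gene was called at an adjusted p (Benjamini-Hochberg) under 0.05 and more than 1.5-fold. Alternatives were other scalings, pseudocounts of 0.1 and 1, a filter of 5 TPM or none, a replicate block, fits of the 4 compared libraries alone, robust eBayes, other limits and leaving out libraries.

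The members, gene lists and tests were chosen with earlier results of these data known. Named genes were the members, MYC, the NR4A family, tested MYC-region genes, up to 3 called genes of each list for NR4A1 RNA and for DHE, and the 3 genes most like each member (1 of them is not reported here); POP1, RPP25 and MIR99AHG were named after their values were seen. Among the 9 tested MOLM-14 markers SPI1 fell and LYZ rose with NR4A1 RNA, and FLT3 and MPO fell with DHE. The 16 abundant small RNAs summed to 254600 to 403568 TPM, and none was called.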

Additional observations from a re-analysis of the deposited data

Results flagged for a closer look

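For MALAT1 the DHE effect exceeded the NR4A1 effect by 2.06 on the log2 scale (adjusted p 0.0207 by limma over all genes). In that comparison 14.1% of all tested genes were called. The NR4A1 effect alone was not called (-0.83, adjusted p 0.117 by limma). The difference of effects was not called without GFP replicate 1, either vehicle library or either NR4A1 library, nor with no filter. Both DHE libraries lay above both vehicle libraries, and both NR4A1 libraries lay below both GFP libraries. Over the alternatives the difference ranged from 1.49 to 2.47, with adjusted p from 0.01 to 0.0871.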

How the results depend on the processing

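Across the alternatives for a single lncRNA in a single comparison, 381 values kept their direction and their call, which joins the limits on p and on fold, 17 lost a call, 13 gained one and 4 changed sign. The changes of sign were all in differences that were not called: NEAT1 with NR4A1 RNA (-0.35 without GFP replicate 2, up to 0.64 without GFP replicate 1), and, for the DHE effect minus the NR4A1 effect, PVT1 (range -0.48 to 0.26 with 1 library left out; 0.00704 when vehicle replicate 2 was omitted) and CCDC26 (range -0.44 to 0.0346). The number of the 5 lncRNAs called, with 1 library left out, ranged from 0 to 1 for NR4A1 RNA against GFP RNA, from 0 to 3 for DHE against vehicle (0 without either vehicle library), and from 0 to 3 for the difference of effects, and was 0 throughout for GFP RNA against vehicle. With GFP replicate 1 and DHE replicate 2 both left out, it was 1 for NR4A1 RNA (NEAT1, 0.65) and 2 for the difference of effects. For DHE against vehicle it was 1 with only the 4 libraries compared, 2 past 2-fold, and 4 with a replicate block or by adjusted p alone. For the difference of effects it was 2 with upper quartile scaling and 0 with no filter.

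The number of all genes called, with 1 library left out, ranged from 93 to 1499 (704 with all) for NR4A1 RNA, from 1988 to 2897 (2760) for DHE, from 0 to 489 (2) for GFP RNA against vehicle, and from 422 to 3107 (2023) for the difference of effects. Leaving out a library leaves 1 in its group, which was then assumed to vary like the others. For NR4A1 RNA the count was 454 with no scaling, 243 with only the 4 libraries compared, 1264 by adjusted p alone and 264 past 2-fold. For DHE it was 5004 by adjusted p alone and 1085 past 2-fold. For GFP RNA against vehicle it was 37 with a pseudocount of 0.1, 25 with no filter, 4 with robust eBayes, 0 with only the 4 libraries compared and 0 with GFP replicate 1 and DHE replicate 2 both left out. For the difference of effects it was 916 with no scaling, 1297 with no filter and 853 past 2-fold. The cause of these changes was not tested.

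Whether libraries of the same replicate number were prepared as pairs is not given in the sources used here. The differences of replicate 1 from 2 correlated across genes at -0.01 between GFP and NR4A1 RNA and at 0.02 between vehicle and DHE. These values show no shared shift across genes and cannot tell how the libraries were prepared. With a replicate block the counts were 197 for NR4A1 RNA, 0 for GFP RNA against vehicle and 730 for the difference of effects, and PVT1 with DHE was called (-0.67, adjusted p 0.0391, limma).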
